A study of Solanum lycopersicum with 24 samples.

Results

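Genes described as glycosyltransferases were followed across the fruit skin and flesh of a purple tomato. The pair counted with the anthocyanin pathway, Solyc10g083440 and Solyc12g098590, was left out. Members were all genes whose deposited description is "glycosyltransferase" or contains UDP-glycosyltransferase or UDP-glucosyltransferase. The rule found 229 genes among the 34688 genes of the count table. Of these, 204 are described only as glycosyltransferase, which names no sugar donor, and 25 carry a longer name. All fruit had the genotype MT-Aft/atv/hp2, a Micro-Tom tomato line that combines 3 pigment alleles, so no group of another genotype was compared. Control fruit grew in light for 30 days. The other fruit grew from flowers wrapped in aluminium foil from anthesis for 30 days and were collected when the foil came off (0 d) or after 2 d or 5 d of light. Epicarp (skin) and mesocarp (flesh) were sequenced separately, which gives 8 groups of 3 libraries. Nothing in the labels says that the 3 libraries of a group came from separate plants, so p-values measure the spread between these libraries. Foil also encloses a fruit, and re-lit fruit were older than control fruit by their days of light, so darkness and enclosure, or light and age, cannot be told apart.

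Enzymes of the UDP-glycosyltransferase family move a sugar, most often glucose, from a UDP-sugar donor to a small acceptor. The acceptor may be a flavonoid, a hormone, a volatile or a steroidal alkaloid. The added sugar makes the acceptor more soluble and allows its storage in the vacuole. In purple fruit, glycosylation of anthocyanidins completes the pigment, and this step is the best known role of the family in this tissue. Plant genomes hold many such genes, often in tandem arrays, and the acceptor of most members is not known from sequence. No role is given here to a gene whose description names none.

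Each library held 18402751 to 23197867 reads assigned to genes, so 3 reads, the limit that a count of 0 allows, correspond to 0.129 to 0.163 CPM, the count scaled by the library's total of assigned reads. The tissue labels were checked with markers in control fruit. The 4 cuticle genes CD1, GPAT6, CER3 and CER6 were all higher in control epicarp than in control mesocarp, and the phloem gene for sieve element occlusion had no reads in the control epicarp libraries and 25.5 to 54.2 CPM in control mesocarp. The seed storage gene 11S globulin reached 46.8 to 71.6 CPM in control mesocarp, 0.231 to 4.51 CPM in control epicarp and 0 CPM in mesocarp at 0 d. The 3 libraries of each 0 d group differed widely. The summed cuticle genes were at 9097, 422 and 465 CPM in epicarp replicates 1 to 3 at 0 d, and at 655, 19.4 and 5.23 CPM in mesocarp at 0 d. The 3 ripening genes PG2a, NOR and E8 summed to 98.8, 184 and 2944 CPM in epicarp at 0 d, against 15.1 to 28.9 CPM in control epicarp. In mesocarp these genes summed to 1268 to 2277 CPM in control fruit and 1754 to 2116 CPM at 0 d. Epicarp at 2 d held 239 to 323 CPM of the cuticle genes, against 2645 to 4945 CPM in control epicarp. Its ripening genes summed to 131 to 507 CPM. In epicarp at 5 d the cuticle genes were at 525 to 2595 CPM and the ripening genes at 14.3 to 81.8 CPM. Among the tested members, 16 spanned more than 2 log2 units within each 0 d group, 13.9% against 5.89% of all genes in epicarp and 4.95% in mesocarp. Replicates of the 2 tissues with the same number deviated together at 0 d. The part of these differences in the results below was not tested.

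Many members were silent or scarce in fruit, and 1 gene was far above the others in lit tissue. No reads were found for 60 of the 229 members in any library, and 84 had reads in all 24 libraries. In TPM, a scale that also divides by gene length, 108 members stayed under 1 TPM in the mean of every group and 74 reached 1 TPM in all 8 groups. Differences were tested with edgeR's quasi-likelihood test, and a gene was called at a Benjamini-Hochberg adjusted p of 0.05 over all tested genes. A filter on low counts left 115 members among 19620 tested genes, and 54 of the members left out had some reads. The mean over all libraries reached 10 TPM for 60 members and 100 TPM for 10 members. Solyc09g059170.3 had a mean of 4172 TPM, 22.1 times the next highest member and 58.1% of the summed mean TPM of the family. The deposited gene lengths include introns, so TPM understates genes with long introns. By reads, with no division by length, the gene held 39.1% of the family's reads over all libraries.

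The family total differed between groups mainly through Solyc09g059170.3. All members together summed to 6942 ± 350 TPM (SD, n = 3) in control epicarp, 2742 ± 715 at 0 d, 16288 ± 1454 at 2 d and 9026 ± 1871 at 5 d. In mesocarp the sums were 3292 ± 436 TPM in control fruit, 2740 ± 386 at 0 d, 9028 ± 251 at 2 d and 7411 ± 1449 at 5 d. The share of this 1 gene was 59.1% in control epicarp, 1.17% in epicarp at 0 d, 79.3% at 2 d and 71.1% at 5 d. In mesocarp its share was 1.10% in control fruit, 0.288% at 0 d, 58.1% at 2 d and 60.0% at 5 d. By reads its share was lower, 39.7% in control epicarp, 64% in epicarp at 2 d and 39.6% in mesocarp at 2 d. The other 228 members summed to group means between 2523 and 3797 TPM, a far narrower range. In bulk tissue, fewer cells of a type and less RNA per cell cannot be told apart.

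**Figure D1:**
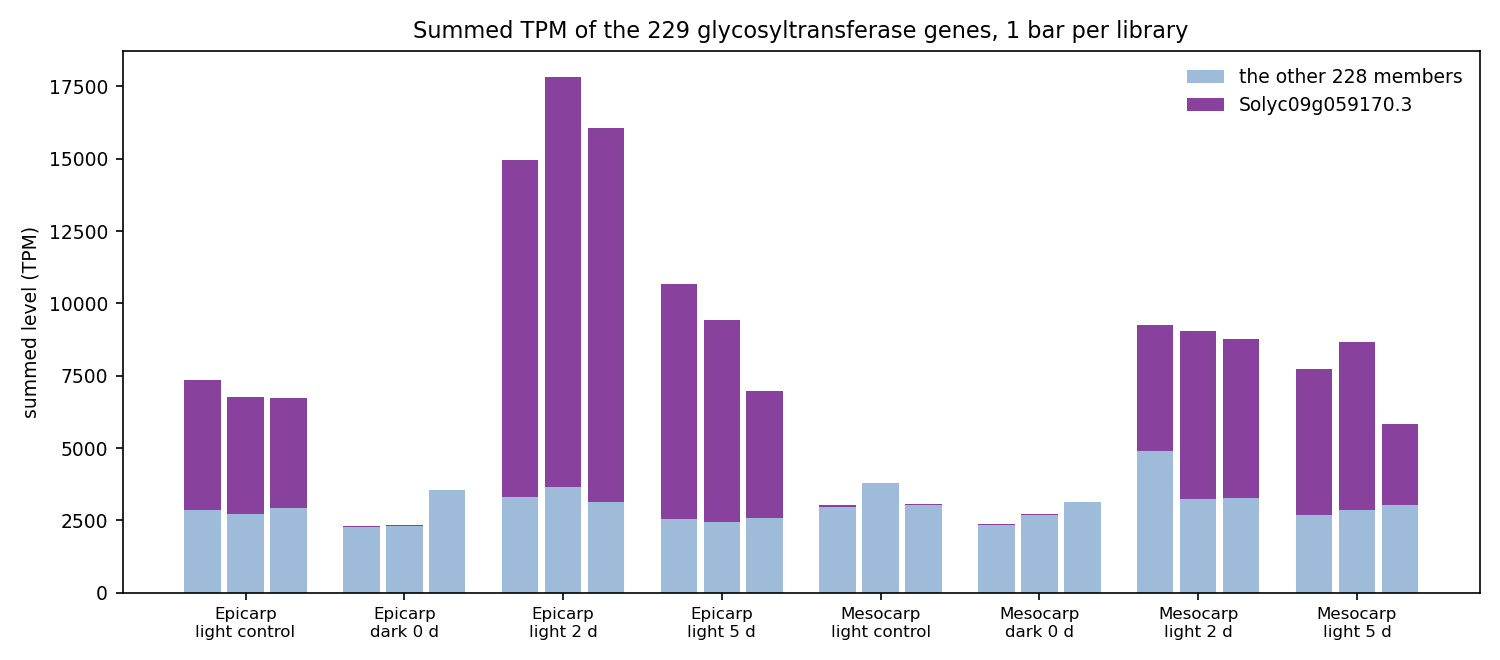
Summed TPM of the family in each of the 24 libraries, split into Solyc09g059170.3 and the other 228 members. The bars of the other members stay near 2523 to 3797 TPM in every group mean, while Solyc09g059170.3 is close to absent in control mesocarp and in both tissues at 0 d.

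Solyc09g059170.3 lies on chromosome 9 from 49651946 to 49652677 on the minus strand (SL4.0), an interval of 732 bases described only as a glycosyltransferase. It was measured at 1264, 1105 and 1039 CPM in control epicarp and at 11.2, 8 and 3.04 CPM in epicarp at 0 d. After 2 d of light it was at 3177, 3830.3 and 3491 CPM, and after 5 d at 2130.5, 1844 and 1189 CPM. The lowest lit epicarp library stood at 1039 CPM and the highest dark one at 11.2 CPM. In mesocarp it was at 15.1, 3.47 and 8.94 CPM in control fruit and at 3.07, 2.42 and 0.527 CPM at 0 d. It then reached 1192, 1609 and 1503 CPM at 2 d and 1371, 1553 and 750.2 CPM at 5 d. Light-grown mesocarp was thus low, while the re-lit mesocarp libraries overlapped those of light-grown epicarp. The log2 difference between 0 d and control epicarp was -7.21 ± 0.65 (SE, adjusted p = 7.7e-07). From 0 d to 2 d the gene rose by 8.93 ± 0.70 log2 units in epicarp (adjusted p = 2.6e-08) and by 9.66 ± 0.73 in mesocarp (adjusted p = 2.6e-08). Mesocarp at 5 d was 7.28 log2 units above control mesocarp (adjusted p = 5.3e-07), and control epicarp was 7.03 ± 0.65 above control mesocarp (adjusted p = 4.0e-07). At 5 d the tissues differed by 0.46 ± 0.50 log2 units, with an adjusted p of 0.57, and their libraries overlapped. The smaller difference between mesocarp at 0 d and control mesocarp, -2.13 ± 0.55, had an adjusted p of 0.034. It did not pass with only those groups in the fit (adjusted p = 0.354), nor without mesocarp 0 d replicate 2 (0.0679) or 3 (0.119), or control replicate 1 (0.139) or 3 (0.0746).

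In epicarp, Solyc12g098580.1 went from near the detection limit in the dark to the control level after 2 d of light. In mesocarp the gene was below every control epicarp library at 2 d, and its libraries overlapped them at 5 d. It lies on chromosome 12 from 65574152 to 65575549 on the minus strand, 1454 bases from the anthocyanin-pair gene Solyc12g098590.3, which runs from 65577004 to 65579171 on the plus strand. Its level was 121, 98.3 and 124 CPM in control epicarp, 0.239, 0.103 and 0 CPM at 0 d, 116, 184 and 133 CPM at 2 d and 133, 85.9 and 80.0 CPM at 5 d. In mesocarp it was at 0.155, 0 and 0.0468 CPM in control fruit and had 1 read in all at 0 d, then 31.1, 63.9 and 57.0 CPM at 2 d and 105, 99.5 and 71.0 CPM at 5 d. The gene was thus near the detection limit in every dark library and in light-grown mesocarp, and far above it elsewhere. The log2 difference of dark from control epicarp was -9.80 ± 0.55 (adjusted p = 9.6e-10), and the rise from 0 d to 2 d in epicarp was 10.24 ± 0.55 (adjusted p = 2.6e-10). In mesocarp the ratio of 2 d to 0 d was 3317, with a counting interval of 595 to 131028 that follows from the single read. Epicarp exceeded mesocarp by 10.66 ± 0.58 log2 units in control fruit (adjusted p = 6.8e-10) and by 1.45 ± 0.33 at 2 d (adjusted p = 0.0045). The SEs of differences from dark epicarp or control mesocarp rest on few reads in those groups and may understate the counting error. At 5 d the tissues differed by 0.09 ± 0.32 log2 units (adjusted p = 0.88).

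The next gene on the other side of the pair gene had no call. Solyc12g098600.1 starts 825 bases beyond Solyc12g098590.3, from 65579997 to 65581388 on the plus strand. Its means were 28.8 ± 3.92 CPM in control epicarp, 13.1 ± 10.5 at 0 d, 17.4 ± 2.74 at 2 d and 17.5 ± 15.7 at 5 d (SD, n = 3). In mesocarp they were 83.8 ± 21.6 CPM in control fruit, 22.9 ± 14.4 at 0 d, 40.2 ± 8.84 at 2 d and 32.6 ± 25 at 5 d. It passed the test in none of the 14 contrasts. For comparison, Solyc12g098590.3 itself went from a mean of 0.791 CPM in epicarp at 0 d to 4307 CPM at 2 d. The nearest member to the other gene of the pair, Solyc10g083440.3, lay 344927 bases away.

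The 4 members described next were also higher at 2 d than at 0 d in both tissues, as were some given further below. Solyc08g150105.1 (chromosome 8, 3208099 to 3209388, plus strand) was at 48.9, 47.0 and 51.3 CPM in control epicarp, 2.24, 1.54 and 0.434 CPM at 0 d, 160.3, 218 and 149 CPM at 2 d and 98.8, 64.6 and 64.6 CPM at 5 d. Its mesocarp values were 2.78, 6.72 and 4.21 CPM in control fruit, 1.33, 2.50 and 1.49 at 0 d, 6.53, 16.2 and 10.3 at 2 d and 48.8, 26.7 and 18.3 at 5 d. Every epicarp library at 2 d exceeded every control epicarp library, while mesocarp libraries were still below every lit epicarp library at 2 d. The gene rose by 7 ± 0.56 log2 units from 0 d to 2 d in epicarp (adjusted p = 3.3e-08) and by 2.78 ± 0.48 in mesocarp (adjusted p = 0.00033). Epicarp exceeded mesocarp at 2 d by 3.94 ± 0.47 (adjusted p = 1.4e-05).

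Solyc03g114710.4 (chromosome 3, 59029956 to 59031691, minus strand) was an epicarp gene that overshot. It was measured at 69.2, 64.8 and 60.2 CPM in control epicarp, 8.60, 22.3 and 45.2 CPM at 0 d, 285, 480.3 and 296 CPM at 2 d and 122, 128 and 114 CPM at 5 d. Mesocarp held 6.37 to 9.84 CPM in control and 0 d libraries and 26.3 to 50.4 CPM at 2 d and 5 d. It rose by 3.88 ± 0.42 log2 units in epicarp from 0 d to 2 d (adjusted p = 1.2e-06) and by 2.32 ± 0.40 in mesocarp (adjusted p = 0.0003). Its fall from 2 d to 5 d in epicarp, -1.54 ± 0.38 log2 units, had an adjusted p of 0.032. That p lay between 0.0503 and 0.147 when any 1 of the 6 libraries was left out.

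Solyc07g043160.1 and Solyc10g009580.5 moved less and in both tissues. Solyc07g043160.1 (chromosome 7, 56634922 to 56636244, plus strand) was at 49.4, 53.1 and 54.3 CPM in control epicarp, 31.4, 23.8 and 32.5 at 0 d and 113, 108 and 99.7 at 2 d. It rose by 1.94 ± 0.18 log2 units in epicarp (adjusted p = 1.7e-07) and by 1.58 ± 0.18 in mesocarp (adjusted p = 3.0e-06). Solyc10g009580.5 had means of 27.6 ± 7.84 CPM in control epicarp, 9.95 ± 5.81 at 0 d and 53.7 ± 8.83 at 2 d (SD, n = 3). It rose by 2.48 ± 0.45 log2 units in epicarp (adjusted p = 0.0003) and by 1.60 ± 0.44 in mesocarp (adjusted p = 0.012).

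**Figure D2:**
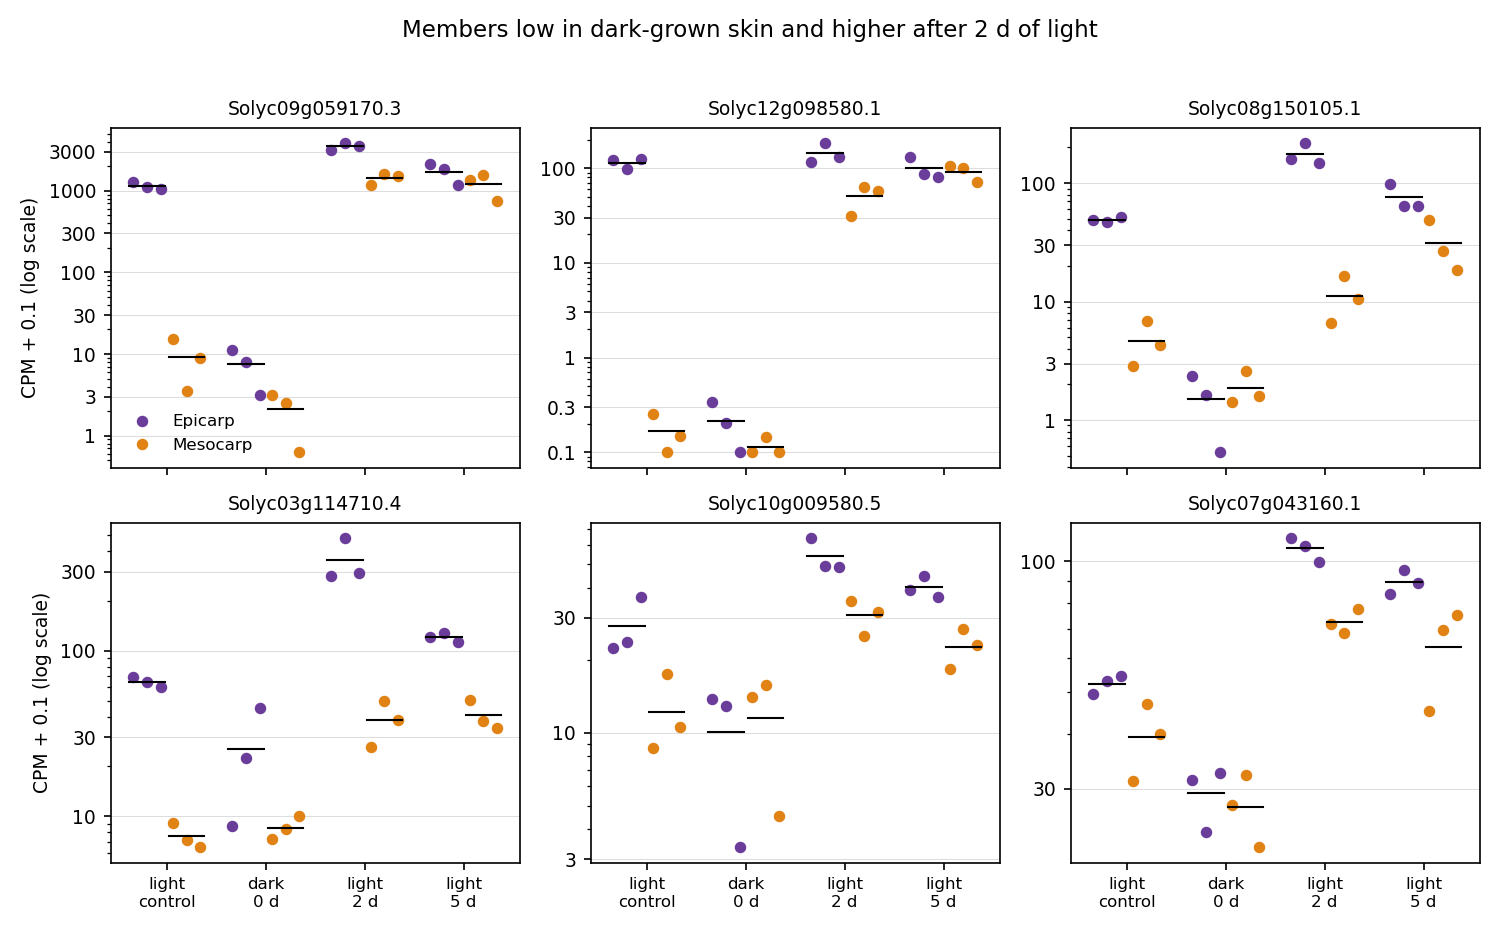
CPM of 6 light-following members in every library on a log axis, with 0.1 added so that 0 can be drawn. Dots are libraries and black lines are group means. Solyc12g098580.1 lies at the bottom of the axis in dark epicarp and in control and dark mesocarp, while Solyc09g059170.3 falls to 3.04 to 11.2 CPM and Solyc08g150105.1 to 0.434 to 2.24 CPM in dark epicarp.

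Over the 8 group means, few members had a course like that of the pair. The likeness was Pearson's r between a member's log2 CPM and the mean log2 CPM of the pair, taken for the 78 members with at least 5 CPM in a group. These group means share libraries and depth, so r is a description. The highest values were 0.99 for Solyc09g059170.3, 0.975 for Solyc12g098580.1, 0.911 for Solyc10g009580.5, 0.899 for Solyc07g043160.1 and 0.861 for Solyc12g096820.1. The pair itself had an r of 0.888 between its 2 genes. Of the 78 members, 3 were above 0.9, 15 above 0.5, 45 below 0 and 23 below -0.5, with a median of -0.15. The lowest values were -0.895 for Solyc11g011850.2, -0.829 for Solyc05g010685.1, -0.825 for Solyc10g079950.3, -0.779 for Solyc04g080080.3 and -0.748 for Solyc04g014960.4. Solyc11g011850.2, the least alike, ranged only from 31.6 to 90.1 CPM over all libraries, so a low r need not mean a large change. Solyc10g079950.3 shares 336 bases with another gene, and reads of the 2 genes may not be separable.

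**Figure D3:**
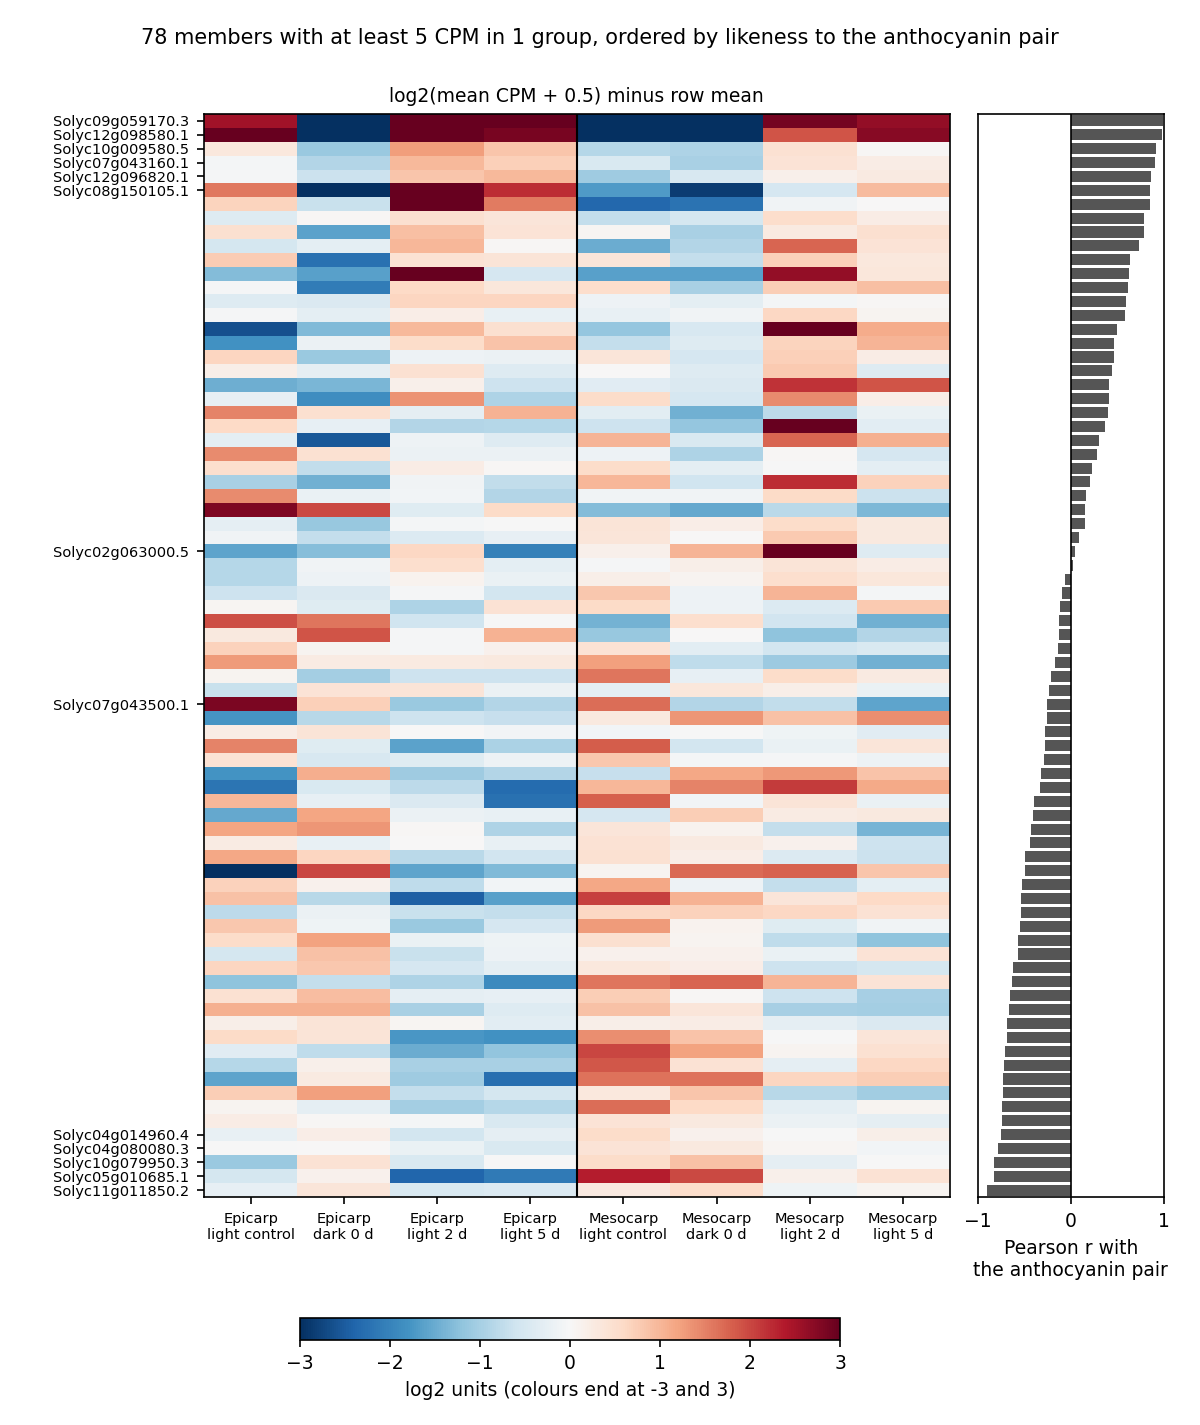
Group means of the 78 members compared with the pair, as log2(mean CPM + 0.5) minus the mean of the row, ordered by r with the pair, which the bar at the side gives. The top rows are high in lit groups other than control mesocarp, and 45 of the 78 rows have an r below 0.

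Light-grown fruit had members on either side of the skin and flesh comparison, in a share not far from that of all genes. Of the 115 tested members, 15 were higher and 22 lower in control epicarp than in control mesocarp, which is 32.2% against 26.8% of all tested genes (13.2% higher and 13.6% lower). The members' median difference was -0.10 log2 units and that of all genes 0.01. The epicarp side included Solyc12g098580.1, Solyc09g059170.3, Solyc08g150105.1 (3.49 ± 0.47, adjusted p = 2.6e-05) and Solyc03g114710.4 (3.18 ± 0.41, adjusted p = 1.8e-05). Solyc09g098080.5 joined them, with 17.8, 9.52 and 10.4 CPM in control epicarp and 0.412, 0 and 0.375 in control mesocarp (5.61 ± 1.49, adjusted p = 0.0091). Solyc11g007390.1 was at 9.72, 4.72 and 3.29 CPM in control epicarp and 0.155, 0 and 0.234 in control mesocarp (5.49 ± 1.80, adjusted p = 0.029). It did not pass without epicarp control replicate 1 or any 1 of the mesocarp control libraries (0.068 to 0.0963). The count was 24 without epicarp control replicate 1 or 2. Seed and phloem markers were high on the mesocarp side of this comparison, and their part was not tested.

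Several members were higher in mesocarp. Solyc12g088240.2 (chromosome 12, 63255598 to 63259379, plus strand) was at 0.806, 0.231 and 0.412 CPM in control epicarp and at 8.82, 6.55 and 10.1 CPM in control mesocarp, a difference of -4.06 ± 0.68 log2 units (adjusted p = 0.00021). At 5 d it was at 0.397, 0.434 and 0.379 CPM in epicarp and 10, 8.56 and 9.66 CPM in mesocarp, and the difference was -4.55 ± 0.69 (adjusted p = 0.00016). Solyc04g008310.3 (chromosome 4, 2018068 to 2019480, minus strand), one of the 8 most abundant members, was at 34.3 ± 7.78 CPM in control epicarp and 91.3 ± 18.9 CPM in control mesocarp (SD, n = 3). Its difference was -1.35 ± 0.24 in control fruit (adjusted p = 0.00042), -1.38 ± 0.24 at 2 d (adjusted p = 0.00056) and -1.19 ± 0.24 at 5 d (adjusted p = 0.0021). Solyc07g043100.1 was at 2.06 ± 0.83 CPM in control epicarp and 23 ± 3.22 CPM in control mesocarp, and differed by -3.41 ± 0.56 (adjusted p = 0.00018). Solyc05g010685.1 was at 3.63 ± 0.956 and 29.6 ± 6.54 CPM in the same groups, a difference of -2.95 ± 0.72 (adjusted p = 0.0051). Solyc08g074970.1, described as a UDP-Glycosyltransferase superfamily protein, had no reads in any epicarp library and 1.65, 2.17 and 1.78 CPM in control mesocarp. It passed the filter on low counts through mesocarp libraries alone, so no p-value is given for it.

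After darkness and after light the tissue differences were as follows. At 0 d, 9 members were higher and 13 lower in epicarp, 19.1% of 115 against 18.3% of all genes (8.78% higher and 9.57% lower). The count was 13 without epicarp 0 d replicate 2 and 12 without mesocarp 0 d replicate 2, and it was 0 with only these groups in the fit (34 by DESeq2). Mesocarp 0 d replicate 1 held more of the summed cuticle genes than epicarp replicates 2 and 3 (655 against 422 and 465 CPM). Of the 4 cuticle genes, 2 were called higher in epicarp at 0 d, and the phloem gene was called lower (-6.55 log2 units). The part of tissue make-up in these counts was not tested. At 2 d, 6 were higher and 23 lower, 25.2% against 18.5% of all genes, of which 8.2% were higher and 10.3% lower. That count was 19, 17 and 16 without epicarp 2 d replicates 1, 2 and 3, and 16 without mesocarp 2 d replicate 1. At 5 d, 8 were higher and 18 lower, 22.6% against 17.5% of all genes (7.12% higher and 10.4% lower). It was 16, 14 and 16 without epicarp replicate 2, epicarp replicate 3 and mesocarp replicate 1. The members' median difference was -0.41 log2 units at 2 d and -0.33 at 5 d, beside -0.02 and -0.01 for all genes.

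In dark epicarp more members were lower than higher. At 0 d, 10 of 115 members were higher and 17 lower than in control epicarp, 23.5% against 19.1% of all genes, with 10.1% of all genes higher and 9.08% lower. The median difference was -0.32 log2 units for members and 0.04 for all genes. The count was 15 without epicarp 0 d replicate 3 or control replicate 1, 17 without control replicate 2, and 8 with only these groups in the fit. Cuticle and ripening markers differed many-fold among these 0 d libraries, as given above, and their part was not tested.

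Members other than those above were also low in dark epicarp. Solyc05g055840.4 (chromosome 5, 64706257 to 64709106, minus strand) was at 21.4, 21.6 and 19.4 CPM in control epicarp, 2.87, 2.87 and 0.815 at 0 d and 19.3, 16.9 and 13.2 at 2 d. It fell by 3.19 log2 units in darkness (SE 0.39, adjusted p = 2.5e-05) and rose by 2.96 ± 0.39 after 2 d of light (adjusted p = 9.3e-06). Solyc08g006350.3 had means of 9.75 ± 2.72 CPM in control epicarp, 1.68 ± 0.933 at 0 d and 10.9 ± 3.10 at 2 d (SD, n = 3). Its changes were -2.48 ± 0.43 (adjusted p = 0.00074) and 2.74 ± 0.44 (adjusted p = 8.0e-05). At 2 d the libraries of Solyc08g006350.3 overlapped the control libraries, while those of Solyc05g055840.4 lay just below them.

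Higher in dark epicarp was Solyc05g053820.3 (chromosome 5, 63238606 to 63240924, minus strand), at 26.6, 26.4 and 24 CPM in control fruit and 51.9, 50.7 and 62.0 CPM at 0 d, a difference of 1.14 ± 0.14 log2 units (adjusted p = 2.3e-05). It was also the only member called higher in dark mesocarp, at 41.0, 56.9 and 57.3 CPM against 34.6, 33.3 and 33.2 CPM (0.70 ± 0.14, adjusted p = 0.0077), a call not made with only those groups in the fit (0.275). Solyc10g085880.1, described as UDP-glycosyltransferase 73C4, was at 0.698, 2.17 and 3.57 CPM in control epicarp and at 1.15, 22.7 and 329 CPM at 0 d. Its 0 d libraries overlapped the control libraries, although the fitted difference of 5.78 ± 1.49 had an adjusted p of 0.011. Solyc09g092500.1, described as UDP-glycosyltransferase 75.1, had the same order of libraries, 30.3, 115 and 319.6 CPM at 0 d against 24.5, 21.8 and 15.6 CPM in control epicarp. Its difference of 2.94 ± 0.82 had an adjusted p of 0.018. Leaving out 0 d replicate 3 gave 0.126, and leaving out any 1 control library gave 0.056 to 0.0739. In both genes the high library is replicate 3, which also had 2944 CPM of the ripening genes. Control mesocarp held 1268 to 2277 CPM of the ripening genes, so they mark flesh as well as ripening here. The part of ripening or of tissue make-up in these values was not tested.

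In mesocarp, 1 tested member was higher and 6 were lower at 0 d than in control fruit, 6.09% against 4.3% of all genes (2.4% higher and 1.9% lower). Besides Solyc09g059170.3 the lower members included Solyc07g043500.1 (-2.62 ± 0.60, adjusted p = 0.02) and Solyc01g107560.3 (adjusted p = 0.014). Leaving out mesocarp 0 d replicate 3 or control replicate 2 gave 0.0684 for the first gene and 0.052 or 0.0795 for the second. The count was 2 without mesocarp 0 d replicate 2 or 3 or control replicate 2. With only these groups in the fit it was 0. The fit to all groups had 30 members at an unadjusted p under 0.05, and DESeq2 called 15. The seed marker 11S globulin was at 0 CPM in these 0 d libraries, and its part was not tested.

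From 0 d to 2 d the share of members called was near that of all genes in both tissues, and in mesocarp nearly all of the members called were higher. In epicarp, 23 were higher and 23 lower at 2 d than at 0 d, 40% against 36.7% of all genes (17.6% higher and 19% lower). In mesocarp, 27 were higher and 1 lower, 24.3% against 24.1% of all genes. Of all genes in mesocarp, 13.3% were higher and 10.8% lower, and the median difference was 0.21 log2 units for members and -0.05 for all genes. The mesocarp count was 18 with only these groups in the fit and 21 without mesocarp 2 d replicate 1. Mesocarp at 2 d was the group with the highest mean for 22 of 115 tested members, or 19.1%, against 8.11% of all genes. Replicate 1 raised these means, as members other than Solyc09g059170.3 summed there to 4902 TPM, against 3226 and 3263 TPM in replicates 2 and 3.

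**Figure D4:**
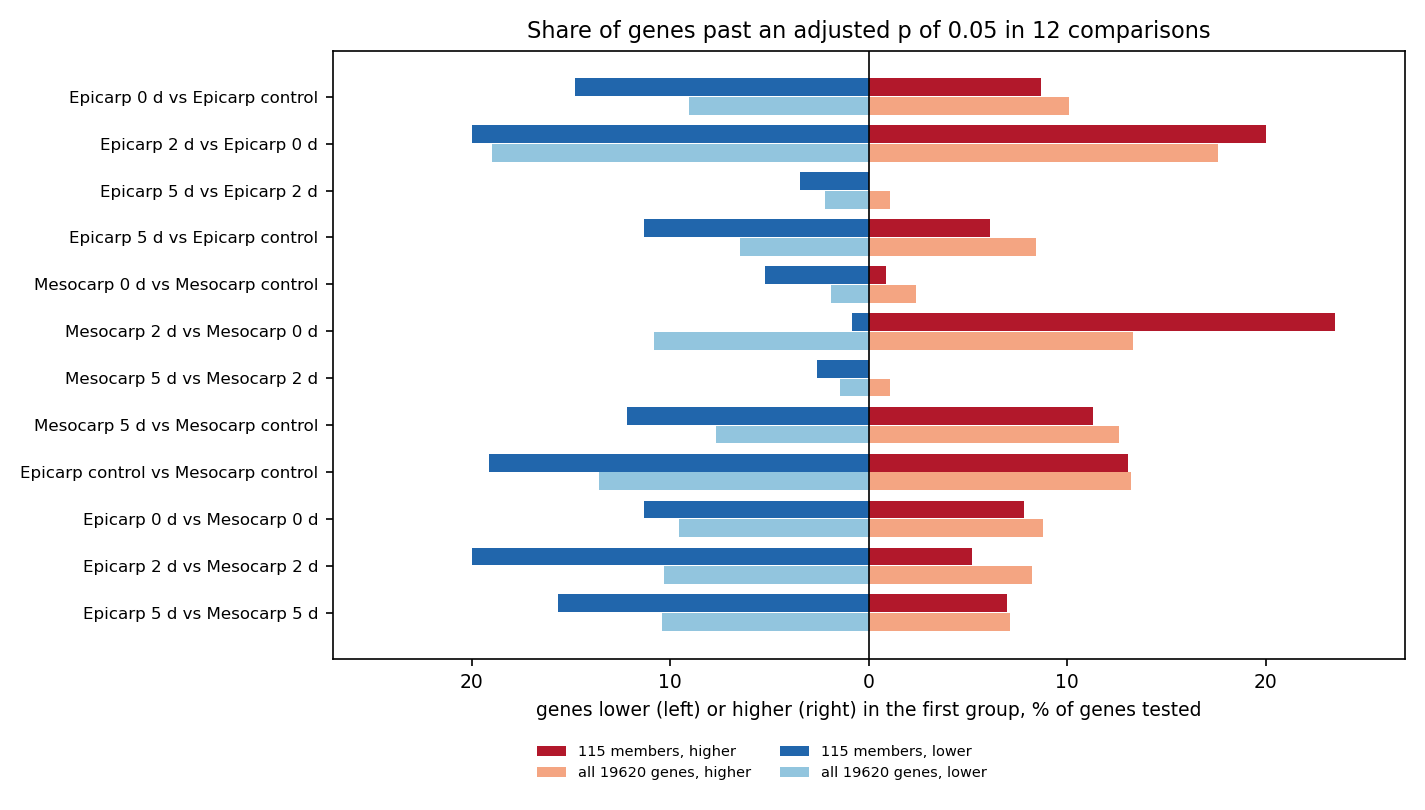
Percent of the 115 tested members and of all 19620 tested genes called higher or lower at an adjusted p of 0.05 in 12 comparisons. From 0 d to 2 d in mesocarp, 27 members were higher and 1 lower, beside 13.3% and 10.8% of all genes, and at 2 d 23 members were lower in epicarp than in mesocarp and 6 higher, beside 10.3% and 8.2% of all genes.

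Solyc02g062990.1 and Solyc02g063000.5, neighbours on chromosome 2, peaked at 2 d and were low again at 5 d. Solyc02g062990.1 (33000500 to 33001207, minus strand) had no reads in either tissue at 0 d or in control mesocarp. It was at 18.2, 24.4 and 17.1 CPM in epicarp at 2 d and 0.894, 0.290 and 0.615 CPM at 5 d. In mesocarp it was at 6.48, 10.6 and 10.3 CPM at 2 d and 1.71, 0.898 and 1.77 CPM at 5 d. Against a floor of 3 reads per library, the 2 d level was at least 130-fold higher than at 0 d in epicarp and at least 66.0-fold higher in mesocarp. From 2 d to 5 d it fell by 5.03 log2 units in epicarp (SE 0.62, adjusted p = 0.00089). The fall of 2.67 log2 units in mesocarp had an adjusted p of 0.023, which lay between 0.0554 and 0.123 when any 1 of the 6 libraries was left out.

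Solyc02g063000.5 (33047241 to 33049147, minus strand) had the same transient at a higher level in mesocarp. It was measured there at 9.18, 10.8 and 9.93 CPM in control fruit, 27.8, 15.8 and 12.3 CPM at 0 d, 158, 86.1 and 80.0 CPM at 2 d and 3.99, 6.02 and 10 CPM at 5 d. In epicarp its means were 2.64 ± 0.551, 3.42 ± 2.63, 14 ± 3.53 and 1.82 ± 0.457 CPM in the same order (SD, n = 3). It rose by 2.71 ± 0.47 log2 units in mesocarp from 0 d to 2 d (adjusted p = 0.00036) and fell by 4.04 from 2 d to 5 d (SE 0.51, adjusted p = 0.00039). In epicarp the changes were 2.08 ± 0.48 (adjusted p = 0.0024) and -2.93 ± 0.51 (adjusted p = 0.0034).

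Few other members changed between 2 d and 5 d. In epicarp 0 were higher and 4 lower, 3.48% against 3.27% of all genes (1.06% higher and 2.21% lower), with 20 members at an unadjusted p under 0.05 and 12 called by DESeq2. The 4 were Solyc02g062990.1, Solyc02g063000.5, Solyc03g114710.4 and Solyc05g053820.3, and 2 were called when epicarp 2 d replicate 1 or 2, or 5 d replicate 2 or 3, was left out. In mesocarp 0 were higher and 3 lower, 2.61% against 2.51% of all genes (1.07% higher and 1.44% lower), with 20 members at an unadjusted p under 0.05 and 7 called by DESeq2. The 3 were the chromosome 2 neighbours and Solyc10g085280.1, and 1 was called when mesocarp 2 d replicate 1 or 2, or 5 d replicate 2 or 3, was left out.

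Solyc10g085870.1 (chromosome 10, 64065383 to 64066843, plus strand) rose in both tissues by 2 d and was above control at 5 d. It was at 4.08, 6.61 and 4.58 CPM in control epicarp, 3.01, 4.57 and 32.4 at 0 d, 82.4, 64.4 and 54.6 at 2 d and 54.2, 53.4 and 35.2 at 5 d. In mesocarp it was at 10.6, 25.3 and 9.32 CPM in control fruit, 13.5, 25 and 35.0 at 0 d, 481, 171 and 204 at 2 d and 43.8, 87.0 and 94.2 at 5 d. Every re-lit library exceeded every control library of its tissue. In both tissues every 5 d library was below every 2 d library, though the gene was not called between these days. The rise from 0 d to 2 d was 2.42 ± 0.68 log2 units in epicarp (adjusted p = 0.0094) and 3.68 ± 0.71 in mesocarp (adjusted p = 0.00091), and epicarp at 5 d was 3.35 ± 0.72 above its control (adjusted p = 0.0048).

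Members lower in epicarp at 2 d than at 0 d included Solyc07g043120.1, Solyc03g120310.3 and Solyc04g016220.5. Larger fitted differences belonged to Solyc05g010685.1 (-3.18, adjusted p = 0.0038) and Solyc03g114175.1 (-2.26, adjusted p = 0.03). The first did not pass without 0 d replicate 1 (0.077), nor the second without 0 d replicate 3 (0.133) or 2 d replicate 1 (0.0884) or 2 (0.121). Solyc07g043120.1 (chromosome 7, 56550494 to 56551966, plus strand) was at 43.0, 39.3 and 35.0 CPM in control epicarp, 24.4, 27.1 and 50.6 at 0 d, 7.5, 6.62 and 8.02 at 2 d and 6.26, 7.29 and 7.34 at 5 d. It fell by 2.14 log2 units from 0 d to 2 d (SE 0.32, adjusted p = 4.8e-05). Solyc03g120310.3 (chromosome 3, 63187046 to 63191903, plus strand), a UDP-Glycosyltransferase superfamily protein, was at 113 ± 19.6 CPM in epicarp at 0 d and 27.2 ± 1.63 CPM at 2 d (SD, n = 3). It fell by 1.99 log2 units in epicarp (SE 0.25, adjusted p = 5.3e-06) and by 1.2 in mesocarp (SE 0.24, adjusted p = 0.0012), where it was the 1 member called lower. Solyc04g016220.5 (chromosome 4, 7025302 to 7027058, plus strand) was at 21.3, 20.3 and 7.44 CPM in epicarp at 0 d and 5.94, 3.94 and 5.11 CPM at 2 d, a difference of -1.66 ± 0.47 (adjusted p = 0.0091).

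After 5 d of light some members were above or below the light-grown level. In epicarp at 5 d, 7 members were higher and 13 lower than in control fruit, 17.4% against 14.9% of all genes (8.42% higher and 6.51% lower), with medians of -0.34 and 0 log2 units. The count was 11 without epicarp 5 d replicate 1, 13 without control replicate 1 and 40 with only these groups in the fit. In mesocarp, 13 were higher and 14 lower, 23.5% against 20.3% of all genes (12.6% higher and 7.71% lower), with medians of -0.11 and 0. It was 17 without mesocarp 5 d replicate 3 and 16 without control replicate 2. The phloem marker was at 5.6 to 8.53 CPM in mesocarp at 5 d against 25.5 to 54.2 CPM in control mesocarp, and the seed marker at 15.1, 1.9 and 0 CPM against 46.8 to 71.6 CPM. The part of these tissues was not tested.

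Solyc07g043500.1 (chromosome 7, 57178447 to 57179772, plus strand) was far below control in both tissues. It was at 86.5, 71.1 and 53.9 CPM in control epicarp, 16.6, 22.5 and 8.36 at 0 d, 1.92, 6.05 and 4.33 at 2 d and 1.84, 6.76 and 6.06 at 5 d. In mesocarp it was at 34.5, 40.8 and 18.5 CPM in control fruit, 7.27, 6.05 and 1.36 at 0 d, 5.84, 4.15 and 6.58 at 2 d and 3.48, 1.06 and 3.88 at 5 d. All control libraries exceeded all libraries of covered fruit of their tissue. At 5 d it was lower than control by -3.74 ± 0.63 log2 units in epicarp (adjusted p = 0.00089) and -3.27 ± 0.62 in mesocarp (adjusted p = 0.0011). Solyc07g043120.1 (-2.38 ± 0.33, adjusted p = 0.00018), Solyc04g016220.5 (-2.48 ± 0.47, adjusted p = 0.0020) and Solyc03g120310.3 (-1.36 ± 0.24, adjusted p = 0.0013) were also below control in epicarp at 5 d. Solyc03g120310.3 was lower in mesocarp as well (-1.71 ± 0.24, adjusted p = 7.1e-05). Above control at 5 d were Solyc12g096830.2 in epicarp (41.8 ± 1.46 against 20.1 ± 4.01 CPM, 1.17 ± 0.22, adjusted p = 0.0018) and Solyc07g043160.1 in epicarp (89.4 ± 5.78 against 52.3 ± 2.53 CPM, 0.89 ± 0.17, adjusted p = 0.0024).

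**Figure D5:**
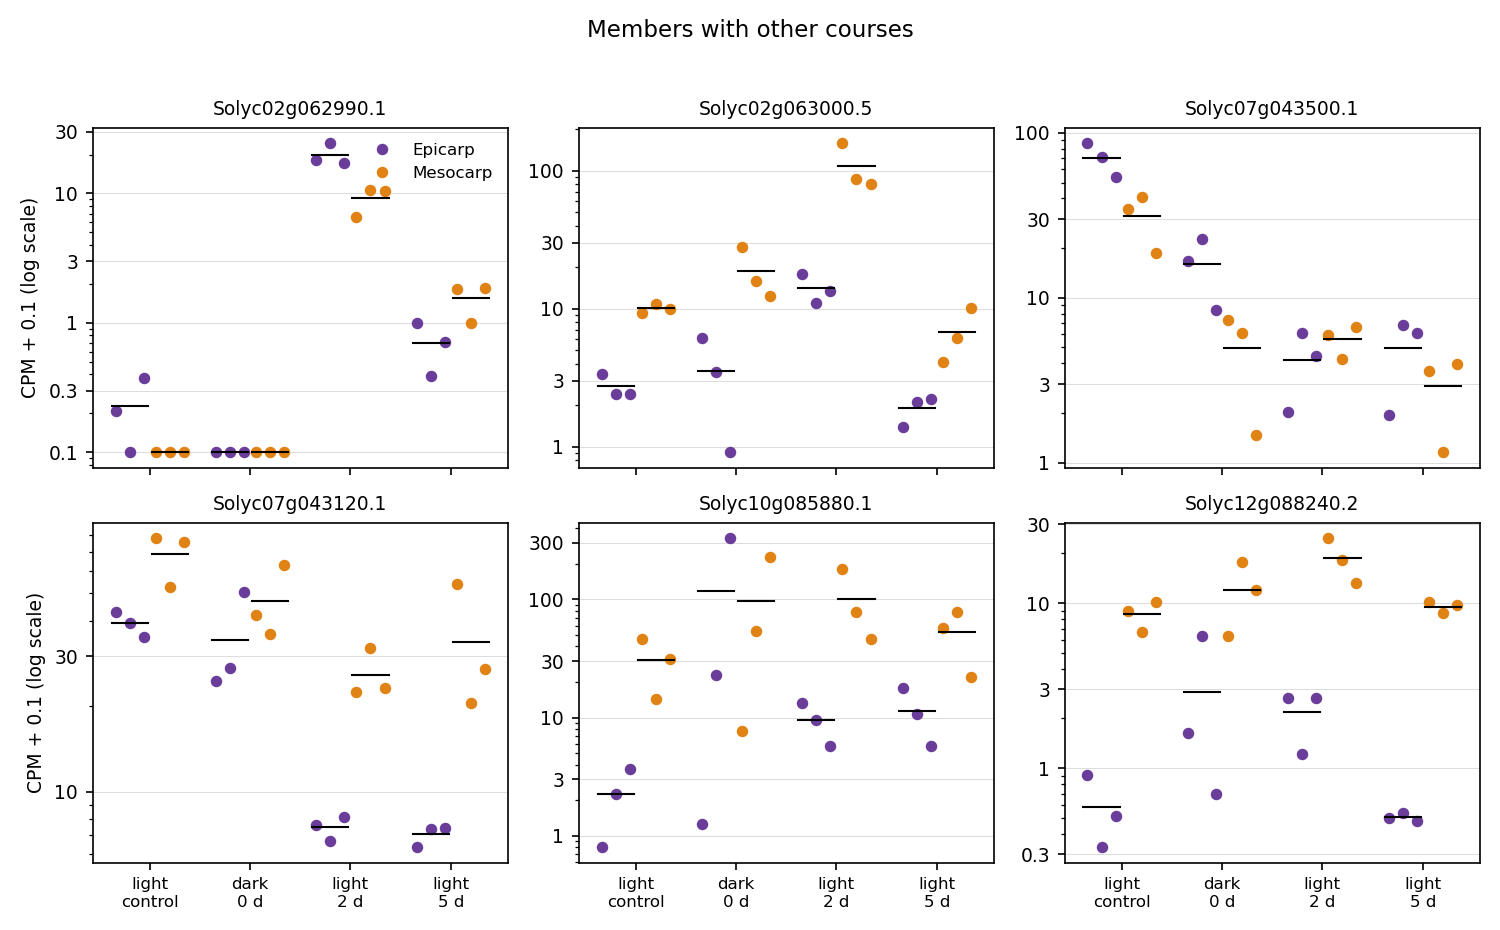
CPM of 6 members with other courses in every library on a log axis with 0.1 added. Dots are libraries and black lines are group means. Solyc02g062990.1 and Solyc02g063000.5 peak at 2 d, Solyc07g043500.1 and Solyc07g043120.1 stay low after light in epicarp, Solyc10g085880.1 spreads from 1.15 to 329 CPM in dark epicarp, and Solyc12g088240.2 is higher in mesocarp.

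Many members sit in tandem runs. With gaps of up to 50000 bases, 114 members fell into 25 runs of 3 or more, and 75 stood alone. The largest run, 11 members on chromosome 11 from 1757585 to 1801848, had 6 members without reads and 4 tested members. A run of 9 on chromosome 1 from 65826330 to 65933675 had no tested member. Over the 8 group means, pairs of tested members in the same run, runs of 2 included, had a median r of 0.327 (70 pairs) and all pairs a median of 0.0613 (6555 pairs). Reads that fit more than 1 near-identical neighbour would raise such values, and their part was not tested.

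On chromosome 7, a stretch from 56399294 to 57179772 held members with different courses. Solyc07g043160.1 rose with light, Solyc07g043100.1 and Solyc07g043150.1 (-3.77 ± 0.84, adjusted p = 0.0025) were lower in control epicarp than in control mesocarp, and Solyc07g043120.1 fell with light in epicarp. Solyc07g043500.1 was lower in epicarp at 2 d than at 0 d by -1.90 ± 0.59 log2 units (adjusted p = 0.018), which did not pass without epicarp 0 d replicate 2 (0.0863), 2 d replicate 1 (0.0884) or 2 d replicate 3 (0.0521). Solyc07g043410.1, Solyc07g043440.1 and Solyc07g043450.3 had no reads, and Solyc07g043480.1 had at most 0.487 CPM. Solyc07g043490.1, which lies between Solyc07g043480.1 and Solyc07g043500.1 from 57159230 to 57160681, was at 12.4 ± 1.45 CPM in control epicarp and 2.83 ± 0.41 CPM at 2 d (SD, n = 3). It was lower at 5 d than in control epicarp by -1.75 ± 0.32 log2 units (adjusted p = 0.0017) and its r with Solyc07g043500.1 over the group means was 0.905.

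Members with numbered names spread over many courses. In Arabidopsis, enzymes of group 73C act on brassinosteroids and flavonoids and enzymes of group 76C on cytokinins, which says nothing of the acceptor of the tomato genes. The 73C4 and 75.1 genes were the abundant ones described above, with means of 142 and 189 TPM. All 4 genes named 91.1 lie in 1 run on chromosome 11, and the most abundant, Solyc11g010810.1 at 121 TPM, passed the test in none of the 14 contrasts. Its 0 d libraries were at 86.8, 32.8 and 10.7 CPM in epicarp and at 105, 56.3 and 12.7 CPM in mesocarp. Of the 5 genes named 76.1, 2 were tested, and Solyc10g085280.1 rose from 0 d to 2 d by 0.81 ± 0.28 log2 units in epicarp (adjusted p = 0.03) and 1.32 ± 0.28 in mesocarp (adjusted p = 0.0021). Of the 2 named 76C4-like, Solyc03g078780.3 was tested and rose in mesocarp by 3.34 log2 units (adjusted p = 0.0026). The 79B2 gene, Solyc04g079050.3, was at 14, 9.29 and 7.55 CPM in control epicarp and 0.546, 1.25 and 3.22 CPM at 5 d (adjusted p = 0.049), a call not made when epicarp 5 d replicate 1 (0.185) or 2 (0.159), or control replicate 1 (0.15), 2 (0.0877) or 3 (0.0669), was left out. The genes named 83.1, 87A2-like and 89A2-like had too few reads to test.

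Genes for the supply of sugar donors, other glycosyltransferases and beta-glucosidases were counted in the same tests, each list matched by description. The list for the supply of UDP-sugars holds mainly genes such as sucrose synthases and UDP-glucose epimerases. It also holds a PII uridylyltransferase and a UDP-xylose phenolic glycosyltransferase, which is on the list of other glycosyltransferases too. Among its 36 tested genes, 7 were higher and 8 lower in epicarp at 2 d than at 0 d, 41.7% against the 36.7% of all genes. In mesocarp 6 were higher and 4 lower, 27.8% against 24.1%. The UDP-glucose 4-epimerase gene Solyc02g030225.1 rose by 4.65 ± 0.23 log2 units in epicarp (adjusted p = 6.9e-11) and by 1.91 ± 0.20 in mesocarp (adjusted p = 1.6e-06). Among 40 tested genes with other glycosyltransferase names, 4 were higher and 14 lower in epicarp over the same days, 45% against 36.7%, and 0 higher and 5 lower in mesocarp, 12.5% against 24.1%. The 46 tested beta-glucosidase genes come from a list made up mostly of glucan endo-1,3-beta-glucosidases of the cell wall. Of them, 10 were higher and 11 lower in epicarp, 45.7%, and 5 higher and 6 lower in mesocarp, 23.9%. Most of these shares from 0 d to 2 d were near those of all genes. Against control at 5 d in epicarp, 14.9% of all genes were called (8.42% higher and 6.51% lower). The sugar supply genes counted 4 higher and 6 lower (27.8%), the other glycosyltransferases 1 and 10 (27.5%) and the beta-glucosidases 1 and 4 (10.9%). In mesocarp 20.3% of all genes were called (12.6% higher and 7.71% lower). There the counts were 6 and 5 (30.6%), 1 and 14 (37.5%), and 3 and 7 (21.7%).

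For 3 members the difference between dark and control fruit was itself different in the 2 tissues. The difference between the epicarp and the mesocarp effect of darkness, tested as an interaction, passed for Solyc09g059170.3 (-5.07 ± 0.77, adjusted p = 0.0015), Solyc08g150105.1 (-3.78 ± 0.68, adjusted p = 0.0060) and Solyc05g055840.4 (-2.12 ± 0.51, adjusted p = 0.031). That is 2.61% of 115 members against 2.56% of all genes (0.744% higher and 1.82% lower), with 17 members at an unadjusted p under 0.05, and the count was 6 without epicarp 0 d replicate 1 and 5 without replicate 3. With only the 4 groups compared in the fit it was 0 (6 by DESeq2), with adjusted p-values of 0.0595, 0.0577 and 0.22 in the same order. Control mesocarp held 3.47 to 15.1 CPM of Solyc09g059170.3 and 2.78 to 6.72 CPM of Solyc08g150105.1, far below control epicarp. The effect of the first 2 d of light differed for Solyc08g150105.1, which rose by 4.22 ± 0.68 log2 units more in epicarp than in mesocarp (adjusted p = 0.0030). This was 1 of 115 members, 0.87% against 1.24% of all genes (0.668% higher and 0.576% lower), with 19 at an unadjusted p under 0.05. The count was 2 without epicarp 0 d replicate 1 or mesocarp 2 d replicate 3, and 3 without epicarp 0 d replicate 3 or mesocarp 0 d replicate 1.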

How the data were processed

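Total RNA of epicarp and mesocarp was sequenced as 150-base paired reads, in 24 libraries of 8 groups with 3 replicates each. The authors deposited counts of reads per gene on the SL4.0 build and TPM values computed from them with gene intervals as lengths. The submitters' processing notes name Trimmomatic 0.39, featureCounts and DESeq2; the sources used here give no aligner and no strand setting. Of the deposited count columns 2 carry the same name, so those 2 were not used, and the reads of mesocarp 2 d replicate 3 and mesocarp 5 d replicate 3 were recovered from TPM and length. All values came out whole within 0.01, and the same step returned the deposited counts for all 34688 genes in each of the other libraries.

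CPM values printed are counts scaled by each library's total of assigned reads. Differences were tested with edgeR 4.0.16 in R 4.3.3 (TMM scaling, filterByExpr, robust quasi-likelihood fit to all 8 groups, 16 residual degrees of freedom), with Benjamini-Hochberg adjustment over 19620 genes at 0.05 in 14 contrasts. ± is an SE beside a log2 difference and an SD over 3 libraries beside a CPM or TPM mean. The SE was taken as the size of the log2 difference over the square root of the quasi-likelihood F. It is thus approximate, and least reliable where a group has few reads. DESeq2 1.42.0 and limma 3.58.1 on log2 TPM with 1 or 0.1 added served as alternatives. Tests were tried on simulated data. Counting intervals and floors of 3 reads cover counting error only.

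Named members were the 8 with the highest mean TPM, up to 6 called members in each direction and contrast whose groups did not overlap and reached 5 CPM, the 5 most and 5 least like the pair, members on a stretch of chromosome 7, members with numbered names and members in runs. A member outside these rules was named after its values were seen. Members and lists were chosen with earlier results of these data known. Same-numbered libraries of the 2 tissues deviated together at 0 d (r of 0.385 to 0.644), 2 d (0.124 to 0.171) and 5 d (0.194 to 0.305). The alternative with a replicate block gave each replicate number 1 shift shared by all 8 groups. Neither that fit nor any other paired the tissues within a condition. No sequence is printed.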

Additional observations from a re-analysis of the deposited data

Results flagged for a closer look

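The difference between dark and control fruit itself differed between epicarp and mesocarp for 3 members, by an interaction term in edgeR's quasi-likelihood fit with Benjamini-Hochberg adjustment. It was -5.07 log2 units for Solyc09g059170.3 (adjusted p = 0.0015), -3.78 for Solyc08g150105.1 (adjusted p = 0.0060) and -2.12 for Solyc05g055840.4 (adjusted p = 0.031). With only the groups compared in the fit, the adjusted p-values were 0.0595, 0.0577 and 0.22. The response to the first 2 d of light differed between the tissues for Solyc08g150105.1, by 4.22 log2 units (adjusted p = 0.0030). Calls were near the share of all genes, 2.61% of members against 2.56% for darkness and 0.87% against 1.24% for first light. The groups of 3 libraries were too small to be searched for outlying libraries.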

How the results depend on the processing

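Of 1783 alternative values for 115 results on named members, 1555 stayed on the same side of the threshold, 228 no longer passed and 0 changed direction, and 140 of the 228 came from leaving out 1 library. With only the groups compared in the fit, the members called were 8 for epicarp 0 d against control, 14 for epicarp 5 d against 2 d, 40 for epicarp 5 d against control, 18 for mesocarp 2 d against 0 d, and 0 for mesocarp 0 d against control, for epicarp against mesocarp at 0 d and for the darkness interaction. DESeq2 called 12 for epicarp 5 d against 2 d, 15 for mesocarp 0 d against control, 7 for mesocarp 5 d against 2 d, 34 between tissues at 0 d, 6 for the darkness interaction and 2 for the first light interaction. limma with 1 TPM added called 20 for mesocarp 0 d, 7 for mesocarp 5 d against 2 d, 43 for mesocarp 5 d against control, 8 for darkness and 2 for first light, and with 0.1 TPM added 12 for mesocarp 0 d and 5 for darkness. Without the 2 recovered libraries the counts were 1 for mesocarp 5 d against 2 d, 15 for mesocarp 5 d against control, 16 between tissues at 5 d and 2 for first light. Chosen after seeing the data, leaving out both 0 d libraries numbered 1 gave 14 for mesocarp 0 d, 6 for darkness and 3 for first light, and leaving out both numbered 3 gave 6 for darkness and 4 for first light. Counts under alternative settings, here and elsewhere, are given without the share of all genes called under the same setting. They cannot show whether a change is particular to the members. The cause of these changes was not tested.

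Leaving out 1 library gave 15 to 39 members for epicarp 0 d against control, 32 to 45 for epicarp 2 d against 0 d, 2 to 4 for epicarp 5 d against 2 d and 11 to 18 for epicarp 5 d against control. In mesocarp the ranges were 2 to 9, 21 to 30, 1 to 2 and 16 to 25. Between tissues the range was 24 to 31 for control fruit, 12 to 26 for fruit at 0 d, 16 to 24 for fruit at 2 d and 14 to 20 for fruit at 5 d. For the darkness interaction it was 2 to 6 and for first light 1 to 3.

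With the replicate block, which is shared by all groups, the comparisons of tissues had 20 members at 0 d, 28 at 2 d and 24 at 5 d. The block ended the calls of Solyc07g043500.1 (adjusted p = 0.0507) and Solyc03g114175.1 (0.0661) between tissues at 0 d. In the other comparisons the block gave 25, 39, 4, 17, 6, 28, 3, 27 and 36 members in the order of the ranges above. It gave 3 for darkness and 1 for first light.

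A count of 0 allows 0.129 to 0.163 CPM, so a lower level of members without reads was not detectable. TPM comparisons between genes rest on gene intervals with introns.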
